A study of Mus musculus with 6 samples.

Results

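Solute carriers of the families that move amino acids, glucose and lactate across membranes were compared between mouse pre-pro-B cells infected with a virus that carries Ebf1 and cells infected with a control virus. The genes were chosen by array name: all probes whose gene name begins with Slc1a, Slc2a, Slc3a, Slc6a, Slc7a, Slc16a, Slc36a, Slc38a or Slc43a followed by a number. This gave 87 genes with 149 probes, of 28307 genes or unnamed sequences with 41174 probes on the array. One of the 87, Slc7a6os, meets the name rule but lies beside Slc7a6 on the other strand and is not a transporter. It was kept, since the rule takes it, and is described on its own.

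All cells lacked functional Ebf1 (Ebf1-/-) and were labelled pre-pro-B cells, the stage at which B cell development halts when this transcription factor is missing. One group received the retroviral vector pMYs-Ebf1-IRES-EGFP, whose insert the sample titles name Ebf1beta (3 arrays), and the other received pMYs-IRES-EGFP, which encodes EGFP alone (3 arrays). Both grew on a layer of OP9 stromal cells. The medium held 10 ng/ml of each of the cytokines Flt3 ligand, interleukin 7 and stem cell factor. Serum was also used, and the listed serum percentage and spin time were the same in both groups. EGFP-positive cells were sorted 24 h after infection. The labels do not say whether replicates came from separate mice or cultures, so p-values measure only the spread between these samples, which may be technical.

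Cells take up most nutrients through such carriers. Slc7a5 and its close relatives are exchangers that reach the cell surface only when bound to a heavy chain of the Slc3a family, Slc38a members bring in neutral amino acids together with sodium, and Slc2a members let sugars down their gradient. Several Slc16a members carry lactate and pyruvate with a proton and need the glycoprotein basigin (Bsg) or embigin (Emb) as a partner. Dividing lymphocytes are known for high expression of Slc2a1, Slc7a5, Slc3a2 and Slc1a5.

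Levels are log2 of the processed spot signal relative to the 75th percentile of the same array, so a level of 0 equals that percentile. Values per array are given for replicates 1 to 3. A log2 change is the level in Ebf1 virus cells minus that in control virus cells. A gene was tested when a probe was well above background on all 3 arrays of at least 1 group, and it was represented by its brightest tested probe. It was called when its limma p-value, adjusted by the Benjamini-Hochberg method over all 20453 tested probes, was under 0.05.

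The signal at the 75th percentile was 316 to 364 on Ebf1 virus arrays and 240 to 366 on control virus arrays, and 50.4% to 59.8% of probes were well above background on Ebf1 virus arrays, against 46.3% to 50.2% on control virus arrays. The Ebf1 probe above background had levels of 0.22, 0.40 and 0.27 in Ebf1 virus cells, against 0.86, 0.10 and 0.36 in control virus cells. Where it lies relative to the viral insert and the deleted part of the gene is not given in the sources used here, so it checks no label. All 5 tested markers of committed B cells were higher with the Ebf1 virus, with a log2 summed level over the list of 8.99 to 9.14 in Ebf1 virus cells and 0.64 to 0.83 in control virus cells, while Cd79a was above background on no array. Of 14 tested markers of the stromal feeder, Col5a1, Fn1 and Fstl1 were higher. A change above 0 was seen in 12 of the 14, and the median log2 change was 0.56, against -0.06 over all tested genes. The log2 summed level of that list was 5.72 to 6.01 in Ebf1 virus cells and 5.52 to 5.60 in control virus cells, and Lum, Dcn and Postn were above background on no array. Markers of T and innate lymphoid cells were lower in 6 and higher in 1 of 11 genes, with a summed level of 4.67 to 4.78 in Ebf1 virus cells and 5.41 to 5.53 in control virus cells. Dendritic markers were lower in 3 and higher in 1 of 6 (5.90 to 6.12 in Ebf1 virus cells and 6.35 to 6.55 in control virus cells). Early lymphoid markers were lower in 4 and higher in 2 of 9, with a summed level of 7.79 to 7.93 in Ebf1 virus cells and 6.71 to 7.03 in control virus cells, and myeloid markers were lower in 3 and higher in 3 of 8. The part of these other cells in the transporter values was not tested, and in bulk RNA fewer cells of a type and less RNA per cell cannot be told apart. Arrays lay on 3 slides: Ebf1 virus replicate 1 shared a slide with control virus replicate 2, Ebf1 virus replicates 2 and 3 shared another, and control virus replicates 1 and 3 shared the last.

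Of the 87 genes, 39 were tested, with 62 probes. In Ebf1 virus cells 14 of them were lower and 5 higher than in control virus cells. The genes that fell included 5 of the 9 tested monocarboxylate carriers, the cationic amino acid carrier Slc7a1, the glutamine carrier Slc1a5 and the heavy chain Slc3a1. Those that rose included the sugar carriers Slc2a5 and Slc2a8, the system L carrier Slc43a2 and the lysosomal carrier Slc38a9. The 14 lower calls are 35.9% of the tested members, against 11.0% of all 13836 tested genes called lower. The 5 higher calls are 12.8% of the members, against 12.6% of all tested genes, and 23.6% of all tested genes were called in either direction. The median log2 change was -0.31 over the 39 members and -0.06 over all tested genes, and 11 of the 39 members had a change above 0. Scaling each array to its median put both medians lower, at -0.62 over the members and -0.38 over all genes. It left 3 members called higher and 14 lower, while 6.83% of all genes were called higher and 12.9% lower.

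Counts of calls depended on which arrays entered. Leaving out control virus replicate 1 left 9 lower calls (23.1% of the members, against 8.67% of all genes). Leaving out control virus replicate 2 or 3 left 7 each, 17.9% of the members, against 5.36% of all genes without replicate 2 and 5.62% without replicate 3. Leaving out Ebf1 virus replicate 3 left 9 lower calls (23.1%, against 8.92% of all genes), and higher calls came to 3 without that array or without control virus replicate 3. With slide as a fixed block, which rests on the 2 arrays that share a slide, 2 members were called higher and 6 lower (15.4% of the members, against 4.43% of all genes called lower).

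**Figure D1:**
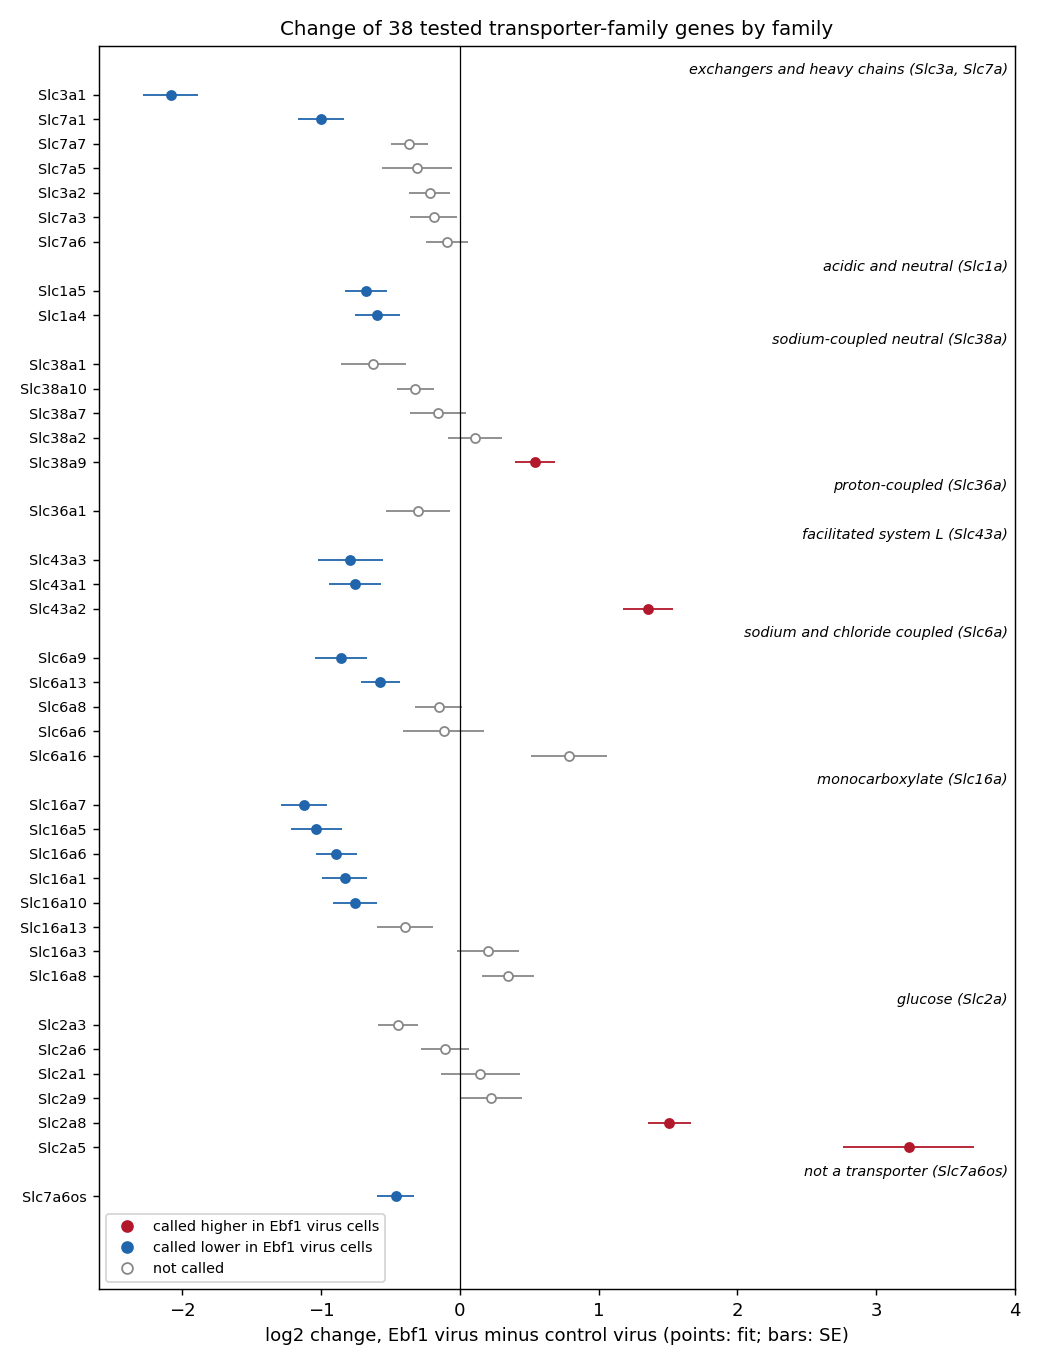
Log2 change (Ebf1 virus minus control virus, horizontal axis) of 38 of the 39 tested genes, arranged by family, with SE bars. Filled points are called genes, 4 higher and 14 lower, and open points are the 20 genes not called. The 6 tested Slc2a genes hold 2 higher calls and no lower one, and the Slc16a genes hold 5 lower calls.

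Among the sugar carriers (Slc2a), 6 of 11 genes were tested, 2 were called higher and none lower. Slc2a5 encodes GLUT5, a fructose carrier. Its probe at mm9 chr4:149517775-149517834 had levels of -2.46, -2.74 and -2.43 in Ebf1 virus cells, against -6.34, -6.46 and -4.54 in control virus cells. All 3 Ebf1 virus arrays were above the 3 control virus arrays, of which only 1 was well above background. With each control virus array taken at no less than its lowest signal well above background, Slc2a5 was at least 4.06-fold higher in Ebf1 virus cells. The fitted log2 change of 3.24 ± 0.47 (SE, limma, adjusted p = 0.00257) is set partly by control virus signals under background and is no measure of size. With normexp background correction, which adds an offset to each signal, it was 0.71 (adjusted p = 0.00908).

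Slc2a8 encodes GLUT8, a carrier that resides mainly on membranes inside the cell. Levels at chr2:32828692-32828751 were 2.02, 2.22 and 2.08 in Ebf1 virus cells, against 0.38, 0.75 and 0.64 in control virus cells, with no overlap. The mean was 2.10 ± 0.10 with the Ebf1 virus and 0.59 ± 0.19 with the control virus (SD, n = 3 each), a 2.85-fold difference and a log2 change of 1.51 ± 0.15 (SE, adjusted p = 0.000418 by limma). A second Slc2a8 probe gave 1.51 ± 0.20 as well (limma, adjusted p = 0.00153).

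The main glucose carriers of lymphocytes had no call. Slc2a1, the basal glucose carrier GLUT1, had levels of 5.52, 4.69 and 5.22 in Ebf1 virus cells, against 4.60, 4.92 and 5.48 in control virus cells. The groups overlapped, and the log2 change of 0.15 ± 0.29 had a 95% interval of -0.52 to 0.81 (limma, adjusted p = 0.744). Slc2a3, the high-affinity carrier GLUT3, had levels of 1.02, 1.30 and 1.04 in Ebf1 virus cells, against 1.53, 1.56 and 1.61 in control virus cells. These did not overlap, and the log2 change of -0.45 ± 0.14 missed the threshold (limma, adjusted p = 0.0631, 95% interval -0.78 to -0.11). It passed with normexp background (-0.44, adjusted p = 0.0433). The other 2 tested sugar carriers had log2 changes of -0.11 and 0.23 and were not called.

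Monocarboxylate carriers (Slc16a) had the most tested genes of the families here. Of these 9, 5 were called lower (55.6%, against 11.0% of all tested genes). The share was larger in Slc1a (2 of 2 genes) and Slc43a (2 of 3). Slc16a1 encodes MCT1, which moves lactate and pyruvate. At chr3:104460941-104461000 its levels were 3.03, 2.83 and 3.17 in Ebf1 virus cells, against 3.64, 3.98 and 3.91 in control virus cells. Every Ebf1 virus array lay under every control virus array. The means of 3.01 ± 0.17 with the Ebf1 virus and 3.84 ± 0.18 with the control virus (SD, n = 3 each) differ 1.78-fold, which is -0.83 ± 0.16 in log2 units (SE, limma, adjusted p = 0.0103). The call was lost with slide as a fixed block (-0.94, adjusted p = 0.101).

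Slc16a7, or MCT2, is a lactate and pyruvate carrier of high affinity. Its levels at chr10:124664784-124664843 were -1.67, -1.74 and -1.32 in Ebf1 virus cells, against -0.60, -0.36 and -0.39 in control virus cells. Again the groups did not overlap, and the log2 change was -1.12 ± 0.17 (SE, limma, adjusted p = 0.0027), 2.18-fold lower. With normexp background the change was -0.72 (adjusted p = 0.00358). Slc16a3, or MCT4, the lactate exporter of glycolytic cells, had levels of -4.28, -3.70 and -3.75 in Ebf1 virus cells, against -4.41, -3.81 and -4.11 in control virus cells. Its groups overlapped, and the log2 change of 0.20 ± 0.22 was not called (limma, adjusted p = 0.55, 95% interval -0.32 to 0.73). Of the lactate carriers MCT1, MCT2 and MCT4, MCT1 and MCT2 fell and MCT4 had no call, and whether their changes differ was not tested. The MCT4 probe was dim, with signals of 15.1 to 26.7, and the lowest signals well above background were 8.39 to 13.2 per array. Its change was -0.08 under quantile normalization and -0.11 under median scaling.

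Slc16a10, or TAT1, carries aromatic amino acids. It had levels of 1.29, 1.01 and 1.30 in Ebf1 virus cells, against 2.12, 1.80 and 1.94 in control virus cells (chr10:39756480-39756539). The groups did not overlap. The log2 change was -0.76 ± 0.16 (SE, limma, adjusted p = 0.0138), and its other 2 probes were also called lower, at -1.22 ± 0.27 and -0.78 ± 0.18. With the fixed slide block the change was -0.51 and not called (adjusted p = 0.291). Slc16a5 (MCT6), a carrier whose physiological substrates are little known, was dim, at -4.18, -3.99 and -4.10 in Ebf1 virus cells, against -3.11, -2.74 and -3.32 in control virus cells (chr11:115334715-115334774). Its difference of -1.03 ± 0.18 (SE, limma, adjusted p = 0.00607) shrank to -0.35 under normexp background and was then not called (adjusted p = 0.199).

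Slc16a6 (MCT7), known as a ketone body carrier in zebrafish liver, had levels of 3.04, 3.06 and 3.27 in Ebf1 virus cells, against 3.86, 4.09 and 4.10 in control virus cells (chr11:109314058-109314117). All 3 Ebf1 virus values were the lower ones. The log2 change was -0.89 ± 0.15 (SE, limma, adjusted p = 0.00483). A second probe gave -0.20 ± 0.51 (adjusted p = 0.804), and neither the mean of both probes (-0.55, adjusted p = 0.169) nor the fixed slide block (-1.05, adjusted p = 0.0644) kept the call. A further 2 tested genes of the family had log2 changes of -0.40 and 0.35 and were not called.

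**Figure D2:**
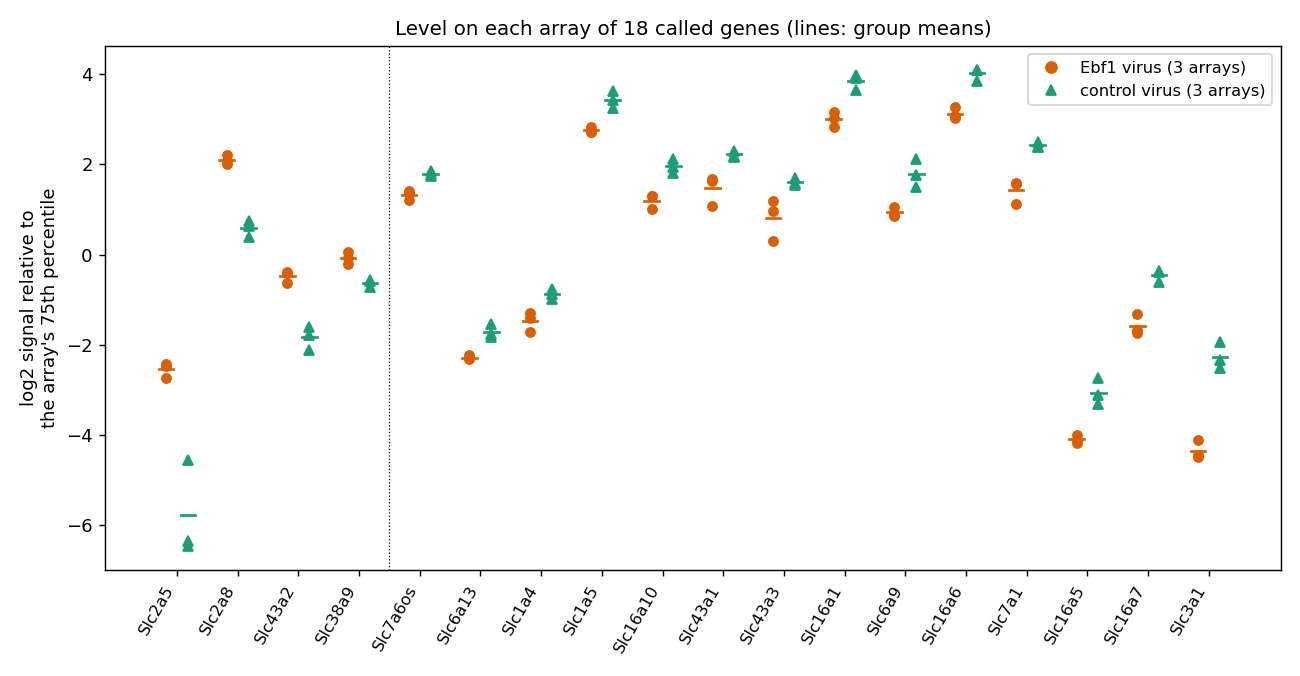
Level on each array (vertical axis, log2 signal relative to the 75th percentile of the array) of 18 of the 19 called genes, ordered by fitted change, with Ebf1 virus arrays as circles, control virus arrays as triangles and group means as short lines. In each of the 18 genes the 3 circles lie on one side of the 3 triangles. The genes were called on these same values, so this separation is no further support. Of all 39 tested members, called or not, 23 had groups that did not overlap. The control virus arrays of Slc2a5 span -6.46 to -4.54.

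Promoters were searched on both strands for 3 motifs: an Ebf family motif (TCCC, any 2 bases, then GGGA), TGATGNAAT, a C/EBP-ATF composite known from the response to amino acid deprivation, and CACGTG, the E-box bound by Myc-type factors. The windows, of 300 bases around a transcription start, were those of RefSeq on GRCm38.p6. Windows were found for 26 of the 39 tested genes, too few to give a share over the members. Over all 32851 windows the motifs occurred in 0.904%, 0.965% and 7.15%. CACGTG was found in windows of 5 genes: Slc16a1 and Slc43a1, which were lower with the Ebf1 virus, and Slc36a1, Slc38a7 and Slc6a16, which were not called. That is 2 of the 9 lower genes with a window and 3 of the 13 not called, given as a description with no test. The Ebf motif and TGATGNAAT were in no window of a member. These matches are letters in a window and say nothing of binding. The windows of the 2 called genes are shown to place the E-box, in capitals: it begins 200 bases before the start in Slc16a1 (chr3:104638414-104638713, plus strand) and 64 bases before it in Slc43a1 (chr2:84840073-84840372, plus strand).
Slc16a1: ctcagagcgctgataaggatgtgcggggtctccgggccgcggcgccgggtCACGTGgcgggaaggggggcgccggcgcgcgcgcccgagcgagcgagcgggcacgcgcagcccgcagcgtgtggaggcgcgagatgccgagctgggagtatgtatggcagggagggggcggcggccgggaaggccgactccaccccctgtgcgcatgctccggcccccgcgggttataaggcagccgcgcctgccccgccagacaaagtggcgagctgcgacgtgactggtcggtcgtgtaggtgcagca
Slc43a1: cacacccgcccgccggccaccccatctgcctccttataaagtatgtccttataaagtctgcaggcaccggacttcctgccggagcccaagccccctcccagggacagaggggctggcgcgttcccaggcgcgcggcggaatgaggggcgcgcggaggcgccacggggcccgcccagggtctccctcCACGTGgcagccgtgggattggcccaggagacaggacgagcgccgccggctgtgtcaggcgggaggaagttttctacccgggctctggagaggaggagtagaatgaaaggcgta

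Among heavy chains and exchangers (Slc3a and Slc7a), 7 of 17 genes were tested, 2 were lower and none higher. Slc3a1 encodes rBAT, the heavy chain of the cystine carrier of kidney and intestine. Its levels at chr17:85463142-85463201 were -4.43, -4.48 and -4.12 in Ebf1 virus cells, against -1.93, -2.52 and -2.34 in control virus cells. The groups did not overlap, with means of -4.34 ± 0.20 in Ebf1 virus cells and -2.26 ± 0.31 in control virus cells (SD, n = 3 each) and a log2 change of -2.08 ± 0.20 (SE, adjusted p = 0.000283 by limma), 4.24-fold lower. The probe was dim in Ebf1 virus cells, with signals of 15.5 to 18.2, and the lowest signals well above background on those arrays were 8.42 to 10.6. This limits the measure of size. With normexp background the change was -0.74 (adjusted p = 0.00435). Its light chains, Slc7a9 and in mouse Slc7a13, were above background on no array.

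Slc7a1, or CAT1, brings in arginine, lysine and ornithine. At chr5:149138970-149139003 its levels were 1.13, 1.56 and 1.58 in Ebf1 virus cells, against 2.39, 2.49 and 2.39 in control virus cells. The groups did not overlap, and the means were 1.43 ± 0.25 with the Ebf1 virus and 2.43 ± 0.06 with the control virus (SD, n = 3 each). The log2 change was -1.0 ± 0.17 (SE, limma, adjusted p = 0.00489), 2.0-fold lower, and a second probe gave -0.99 ± 0.28 (adjusted p = 0.0442).

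The CD98 complex, made of the heavy chain Slc3a2 and the leucine exchanger Slc7a5 (LAT1), had no call. Slc3a2 had levels of 4.26, 4.45 and 4.15 in Ebf1 virus cells, against 4.40, 4.50 and 4.60 in control virus cells, and a log2 change of -0.22 ± 0.15 (limma, adjusted p = 0.329, 95% interval -0.56 to 0.13). Slc7a5 had levels of 2.26, 1.47 and 1.96 in Ebf1 virus cells, against 1.81, 2.44 and 2.37 in control virus cells. For both genes the groups overlapped, and the Slc7a5 change of -0.31 ± 0.25 had a 95% interval of -0.90 to 0.28 (limma, adjusted p = 0.418). Slc7a6, or y+LAT2, which also binds Slc3a2 and exports arginine in exchange for glutamine, had levels of 0.66, 0.59 and 0.35 in Ebf1 virus cells, against 0.74, 0.63 and 0.51 in control virus cells (log2 change -0.09 ± 0.15, limma, adjusted p = 0.699). Here too the groups overlapped, while a second Slc7a6 probe, without overlap, gave -0.47 ± 0.15 (adjusted p = 0.0638). Slc7a11, the cystine-glutamate exchanger xCT, had 4 probes, none of them above background on any array.

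Slc7a6os, which is not a transporter, had a probe 3.61 kb from that of Slc7a6. Its levels were 1.36, 1.21 and 1.41 in Ebf1 virus cells, against 1.85, 1.78 and 1.74 in control virus cells (chr8:108724817-108724876). The log2 change of -0.46 ± 0.14 (SE, limma, adjusted p = 0.0469) had groups that did not overlap, and the call was lost on leaving out any of the 6 arrays (adjusted p 0.0662 to 0.137).

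Both tested members of the Slc1a family, of 7 on the array, were lower. Slc1a5, or ASCT2, takes up glutamine and other neutral amino acids. Its levels at chr7:17383359-17383418 were 2.71, 2.82 and 2.72 in Ebf1 virus cells, against 3.25, 3.42 and 3.62 in control virus cells. The groups did not overlap, and the means were 2.75 ± 0.06 with the Ebf1 virus and 3.43 ± 0.18 with the control virus (SD, n = 3 each). The log2 change was -0.68 ± 0.15 (SE, limma, adjusted p = 0.0171), 1.60-fold lower. It was not called with the fixed slide block (-0.70, adjusted p = 0.176), nor without control virus replicate 2, control virus replicate 3 or Ebf1 virus replicate 3 (adjusted p 0.0508 to 0.0692).

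Slc1a4, or ASCT1, carries serine, alanine and cysteine. It had levels of -1.71, -1.29 and -1.39 in Ebf1 virus cells, against -0.75, -0.98 and -0.87 in control virus cells (chr11:20202533-20202592). The log2 change was -0.60 ± 0.16 (SE, limma, adjusted p = 0.0376), and a second probe gave -0.41 ± 0.16, which was not called (adjusted p = 0.108). The call was lost without each of the arrays except Ebf1 virus replicate 2 (adjusted p 0.0715 to 0.107). The glutamate carriers of this family, Slc1a1, Slc1a2 and Slc1a3 among them, were not tested for want of signal.

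Of the sodium-coupled neutral carriers (Slc38a), 5 of 10 genes were tested and 1 was called. Slc38a9 sits on the lysosome, where it senses arginine for mTORC1. Its levels at chr13:113521855-113521914 were -0.22, -0.07 and 0.05 in Ebf1 virus cells, against -0.73, -0.59 and -0.55 in control virus cells. It was higher in all 3 Ebf1 virus arrays than in any control virus array, by a log2 change of 0.54 ± 0.14 (SE, adjusted p = 0.0325 by limma), and a second probe gave 0.71 ± 0.15 (adjusted p = 0.0134). Leaving out any array except Ebf1 virus replicate 1 ended the call (adjusted p 0.0806 to 0.0976), and median scaling gave 0.23 (adjusted p = 0.65).

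Slc38a1 and Slc38a2 (SNAT1 and SNAT2) are the glutamine and neutral amino acid carriers of most dividing cells. Slc38a1 had levels of 3.66, 4.54 and 4.13 in Ebf1 virus cells, against 4.95, 4.60 and 4.66 in control virus cells (chr15:96406793-96406852). The groups did not overlap, but the Ebf1 virus arrays were spread, and the log2 change of -0.62 ± 0.24 was not called (limma, adjusted p = 0.101, 95% interval -1.18 to -0.07). One of its 5 probes was called lower, at -0.56 ± 0.14 (adjusted p = 0.0235), and the other 4 ranged from -0.62 to -0.33. Slc38a2 had levels of 4.42, 3.91 and 3.88 in Ebf1 virus cells, against 4.07, 4.06 and 3.73 in control virus cells. Its groups overlapped, with a log2 change of 0.11 ± 0.20 (limma, adjusted p = 0.719, 95% interval -0.35 to 0.57), and its 4 probes ranged from -0.61 to 0.38 with no call. Slc36a1, or PAT1, which exports small amino acids from the lysosome, was the one gene tested of the 4 in its family, at -2.56, -2.05 and -1.82 in Ebf1 virus cells, against -1.53, -1.98 and -2.0 in control virus cells (log2 change -0.30 ± 0.23, limma, adjusted p = 0.38).

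All 3 members of the Slc43a family were tested and called, in opposite directions. Slc43a2, or LAT4, lets leucine, isoleucine, phenylalanine and methionine through without sodium. Its levels at chr11:75348053-75348112 were -0.41, -0.63 and -0.38 in Ebf1 virus cells, against -2.12, -1.77 and -1.60 in control virus cells. With means of -0.47 ± 0.14 in Ebf1 virus cells and -1.83 ± 0.27 in control virus cells (SD, n = 3 each), it was 2.56-fold higher, a log2 change of 1.36 ± 0.18 (SE, adjusted p = 0.00153 by limma). A second probe gave 0.82 ± 0.19 (adjusted p = 0.0216), and the fixed slide block left the change at 1.37 with adjusted p = 0.0531.

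Slc43a1, or LAT3, carries much the same branched-chain and aromatic amino acids. It had levels of 1.09, 1.64 and 1.67 in Ebf1 virus cells, against 2.17, 2.19 and 2.31 in control virus cells (chr2:84703269-84703328). Slc43a3, a carrier of purine nucleobases in human cells, had levels of 0.31, 1.19 and 0.96 in Ebf1 virus cells, against 1.70, 1.59 and 1.54 in control virus cells (chr2:84797987-84798046). The probes of these 2 genes lie 94.7 kb apart, and in both genes all Ebf1 virus arrays were under all control virus arrays, with Ebf1 virus replicate 1 the lowest. The log2 changes were -0.76 ± 0.19 for Slc43a1 (SE, limma, adjusted p = 0.027) and -0.79 ± 0.23 for Slc43a3 (adjusted p = 0.0487). The Slc43a1 call was lost without any 1 of the 3 control virus arrays (adjusted p 0.0617 to 0.0914). Slc43a3 lost its call without each array except Ebf1 virus replicate 2 (adjusted p 0.0566 to 0.12), and between the 2 arrays that share a slide its difference was -1.28.

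Among the sodium and chloride coupled carriers (Slc6a), which include the neurotransmitter carriers, 5 of 20 genes were tested, and 2 were lower. Slc6a9, or GlyT1, brings glycine into developing red cells and glia. Its levels at chr4:117541835-117541894 were 0.86, 0.89 and 1.06 in Ebf1 virus cells, against 1.5, 1.77 and 2.12 in control virus cells. The groups did not overlap, and the log2 change was -0.86 ± 0.19 (SE, limma, adjusted p = 0.0158). It was not called with the fixed slide block (-0.91, adjusted p = 0.156), nor without control virus replicate 2, control virus replicate 3 or Ebf1 virus replicate 2 (adjusted p 0.0506 to 0.0529). Slc6a13, or GAT2, carries GABA and taurine, and had levels of -2.32, -2.29 and -2.23 in Ebf1 virus cells, against -1.76, -1.54 and -1.83 in control virus cells (chr6:121287597-121287656). The log2 change was -0.57 ± 0.14 (SE, limma, adjusted p = 0.0261), but it was lost without any 1 of the 6 arrays (adjusted p 0.0517 to 0.112).

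Slc6a6, or TauT, the taurine carrier, had levels of 2.79, 3.84 and 3.89 in Ebf1 virus cells, against 3.52, 3.69 and 3.64 in control virus cells. Ebf1 virus replicate 1 was the lowest and the other two Ebf1 virus arrays the highest of the 6. The log2 change of -0.12 ± 0.29 was not called (limma, adjusted p = 0.805, 95% interval -0.79 to 0.56), and a second probe gave 0.53 ± 0.19 (adjusted p = 0.0841). The 2 remaining tested Slc6a genes had log2 changes of -0.15 and 0.79, and the second of these was above background on 1 of 3 control virus arrays.

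Not tested were 48 of the 87 genes: 33 were above background on no array and 15 on some arrays only. The kidney and intestine amino acid carriers Slc6a18, Slc6a19 and Slc7a9, the brain carriers Slc6a3, Slc6a4 and Slc6a5, the liver glucose carrier Slc2a2, and the light chains Slc7a8 and Slc7a10 were among the 33. The insulin-responsive glucose carrier Slc2a4 was above background on 1 Ebf1 virus array and no control virus array. Slc38a4, a carrier of liver and placenta, came closest to the limit, with 2 Ebf1 virus arrays and 1 control virus array.

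Different probes of a gene could be compared for 16 genes. In 5 of them (Slc16a1, Slc16a6, Slc1a4, Slc38a1 and Slc6a13) some probes were called and others not, and in none were probes called in opposite directions. Probes without a call could differ in sign: Slc38a2 had probes at -0.61 ± 0.20 and 0.38 ± 0.14, each with groups that did not overlap. Slc16a1 had 2 of 3 probes called, at -0.83 ± 0.16 and -0.89 ± 0.18, while the third gave -0.63 ± 0.55 (limma, adjusted p = 0.445). The called genes Slc2a8, Slc43a2, Slc38a9, Slc16a10 and Slc7a1 had all their tested probes called the same way.

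**Figure D3:**
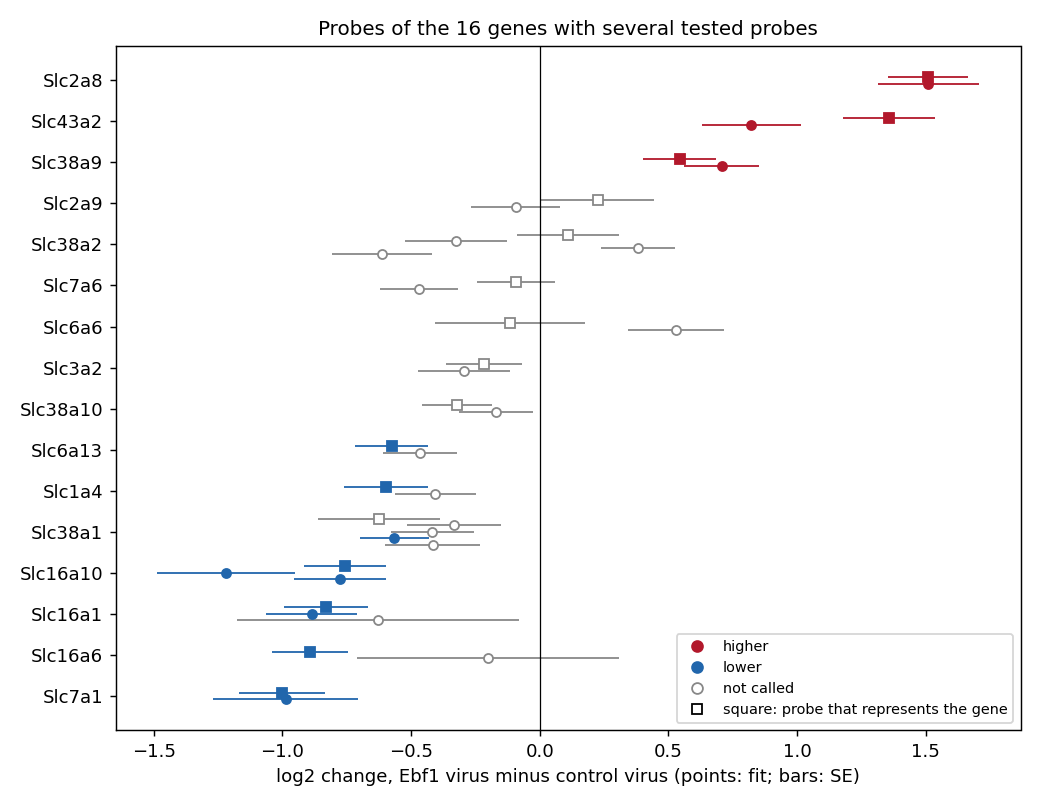
Log2 change (Ebf1 virus minus control virus, horizontal axis, with SE bars) of every tested probe of the 16 genes with several, squares marking the probe that represents the gene and filled symbols the called probes. No gene has filled symbols on both sides of 0, and the Slc38a2 probes span -0.61 to 0.38.

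Comparing only the 2 arrays that share a slide, Ebf1 virus replicate 1 minus control virus replicate 2, the difference was 1.26 for Slc2a8, 1.37 for Slc43a2, -1.91 for Slc3a1, -1.36 for Slc7a1, -1.30 for Slc16a7 and -0.94 for Slc16a1. It was smaller in size than the fitted change in 6 of the 19. The change with slide as a fixed block equals this difference, so that fit is no separate check of size. Of the 19 calls, 8 held with slide as a fixed block, for Slc2a5, Slc2a8, Slc3a1, Slc7a1, Slc16a5, Slc16a7, Slc43a1 and Slc43a3. The other 11 were not called in that fit. Normexp background moved Slc2a5, Slc3a1, Slc16a5 and Slc16a7 toward 0 by over 1.5 times, to 0.71, -0.74, -0.35 and -0.72. It turned the sign of no called gene. Beside Slc16a5, it ended the calls of Slc38a9 (adjusted p = 0.0579), Slc1a4 (0.0749), Slc6a13 (0.101) and Slc7a6os (0.15). Median scaling ended, among others, those of Slc38a9 and Slc7a6os (0.0914 for Slc7a6os), and quantile normalization those of Slc43a3 (0.0666) and Slc7a6os (0.0744).

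**Figure D4:**
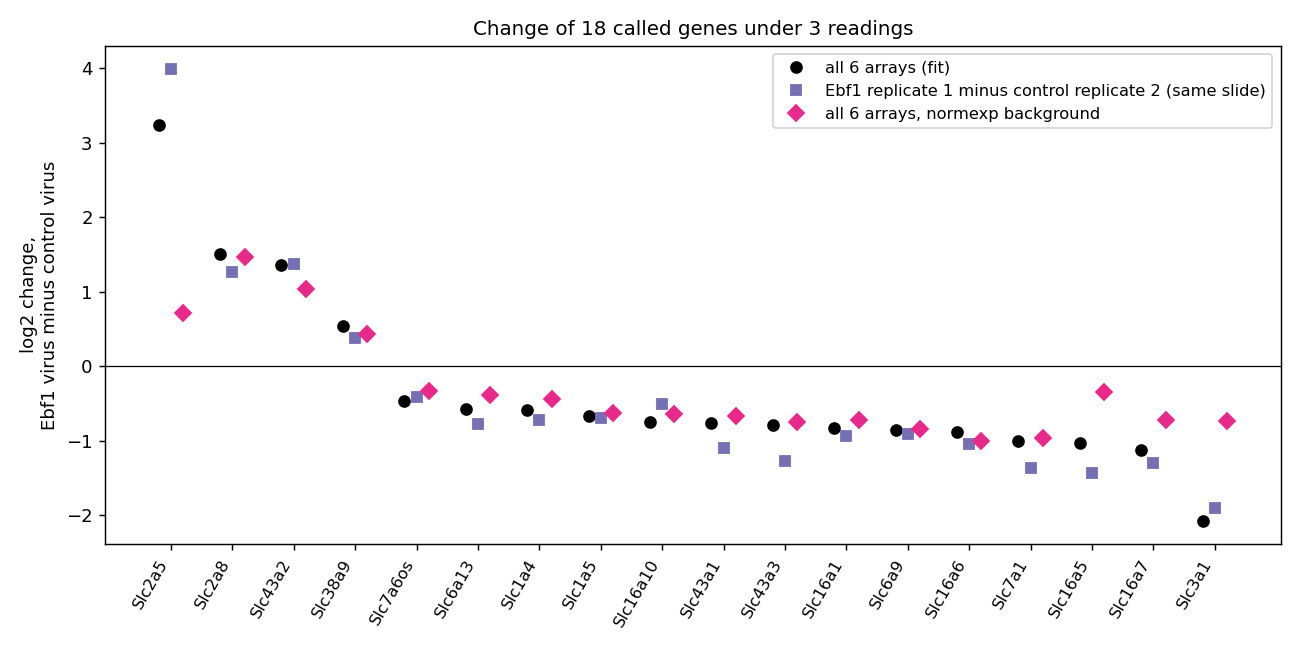
Log2 change (Ebf1 virus minus control virus, vertical axis) of 18 of the 19 called genes from the fit to all 6 arrays (circles), from the 2 arrays that share a slide (squares) and from the fit with normexp background (diamonds). Slc16a5 lies at -1.03, -1.44 and -0.35, and the circle and square of Slc2a5 rest on control virus signals under background and show no size.

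Genes that use the carried nutrients were counted for comparison, by the same fit. In a list of amino acid metabolism, 28 of 31 genes were tested, 4 were higher and 8 lower, with a median log2 change of -0.38, against -0.06 over all genes. The calls are 14.3% higher and 28.6% lower, against 12.6% and 11.0% of all tested genes. Bckdha, a subunit of the enzyme that breaks down branched-chain amino acids, rose most in this list, at 5.82, 5.76 and 5.74 in Ebf1 virus cells, against 3.19, 3.30 and 3.40 in control virus cells (log2 change 2.47 ± 0.13, limma, adjusted p = 1.7e-05). Gls2, a glutaminase, fell by 1.32 ± 0.14 on the log2 scale (adjusted p = 0.000421), and Odc1, which makes polyamines from ornithine, fell by 1.13 ± 0.13 (adjusted p = 0.000757). The other lower genes were Asns, which makes asparagine, Phgdh, Psat1, Shmt1 and Shmt2 of the serine and glycine pathway, and the branched-chain aminotransferase Bcat1, and the other higher genes were Ass1, Asl and Prodh. Without control virus replicate 2 or 3, 3 genes of the list were called lower, and without Ebf1 virus replicate 2 or 3, 5 were. The share of all genes called lower fell as well. It was 5.36% and 5.62% without control virus replicates 2 and 3, and 7.14% and 8.92% without Ebf1 virus replicates 2 and 3.

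In the glycolysis and lactate list, 26 of 28 genes were tested, 2 were higher and 2 lower, with a median of -0.07. That is 7.69% in each direction, against 12.6% of all tested genes higher and 11.0% lower. Eno3, the muscle form of enolase, was lower by a log2 change of -1.01 ± 0.14 (limma, adjusted p = 0.00229), and Pfkfb3, which raises the activator of phosphofructokinase, was higher by 0.72 ± 0.14 (adjusted p = 0.0106). Pdk2, a kinase that shuts down pyruvate dehydrogenase, was higher by 1.41 ± 0.31 (adjusted p = 0.0169), at 0.47 under normexp background (adjusted p = 0.106). Leaving out 1 array moved the calls of this list to 1 or 2 in each direction, with 1 higher call without Ebf1 virus replicate 2 or control virus replicate 1 and 1 lower call without any 1 of the 6 arrays. In those fits 8.91% to 11.2% of all genes were called higher and 5.36% to 8.92% lower.

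A list of amino acid sensing and mTORC1 had 27 of 28 genes tested, 1 higher and 1 lower. Each direction holds 3.70%, against 12.6% of all tested genes higher and 11.0% lower. Castor2, a relative of the arginine sensor, was at least 1.70-fold higher in Ebf1 virus cells, where all 3 arrays were above background, against 0 of 3 control virus arrays, and under normexp background it was not called (adjusted p = 0.227). This bound sets the mean of the Ebf1 virus arrays against the control virus arrays, taken at no less than the lowest signal well above background of each. Rps6kb1, the S6 kinase that mTORC1 activates, was lower by -0.77 ± 0.21 (limma, adjusted p = 0.0359) and was not called without control virus replicate 2 or 3 or without Ebf1 virus replicate 2 or 3.

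Partners and regulators of the carriers were measured in 17 of 22 genes, 3 higher and 1 lower. These make up 17.65% and 5.88%, against 12.6% of all tested genes higher and 11.0% lower. Mycn, a Myc family factor that drives growth, had levels of 3.26, 2.88 and 3.26 in Ebf1 virus cells, against 4.82, 4.78 and 4.85 in control virus cells, and fell by 1.68 ± 0.16 in log2 units (limma, adjusted p = 0.000254). Foxo1, a transcription factor of B cell development and of metabolism, rose by 1.30 ± 0.19 (adjusted p = 0.00233), and Ddit3, or CHOP, of the stress response, by 0.99 ± 0.15 (adjusted p = 0.00318). The third higher gene was Txnip, which lowers glucose uptake by removing Slc2a1 from the surface, at 0.67 ± 0.19 (adjusted p = 0.0439). Bsg, the partner of MCT1 and MCT4, had a log2 change of -0.09 ± 0.20 (adjusted p = 0.777), and Emb, the partner of MCT2, of -0.50 ± 0.16 (adjusted p = 0.0618). Neither was called, nor were Myc (-0.22 ± 0.19) and Atf4 (-0.57 ± 0.23), a regulator of amino acid carriers.

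Carriers of other nutrients, such as metals, nucleosides and mitochondrial metabolites, had 31 of 33 genes tested, 2 higher and 7 lower, with a median log2 change of -0.09. Their shares are 6.45% higher and 22.6% lower, against 12.6% and 11.0% of all tested genes. Slc39a6, a zinc carrier, fell by 1.22 ± 0.17 (limma, adjusted p = 0.00183), and Slc25a13, the mitochondrial aspartate-glutamate carrier, by 1.02 ± 0.17 (adjusted p = 0.00445). Slc25a1, the mitochondrial citrate carrier, rose by 1.26 ± 0.18 (adjusted p = 0.00224). The lower calls of this list came to 3 without control virus replicate 3 and to 4 without control virus replicate 1, control virus replicate 2 or Ebf1 virus replicate 2, and its higher calls to 1 without control virus replicate 3 or Ebf1 virus replicate 2. Of all genes, 5.36% to 8.67% were called lower in those fits, and 9.66% and 10.4% higher without control virus replicate 3 and Ebf1 virus replicate 2. With the fixed slide block the amino acid metabolism list had 2 higher and 2 lower calls, and each of the other 4 lists had at most 2 calls in a direction. That fit called 6.4% of all genes higher and 4.43% lower.

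**Figure D5:**
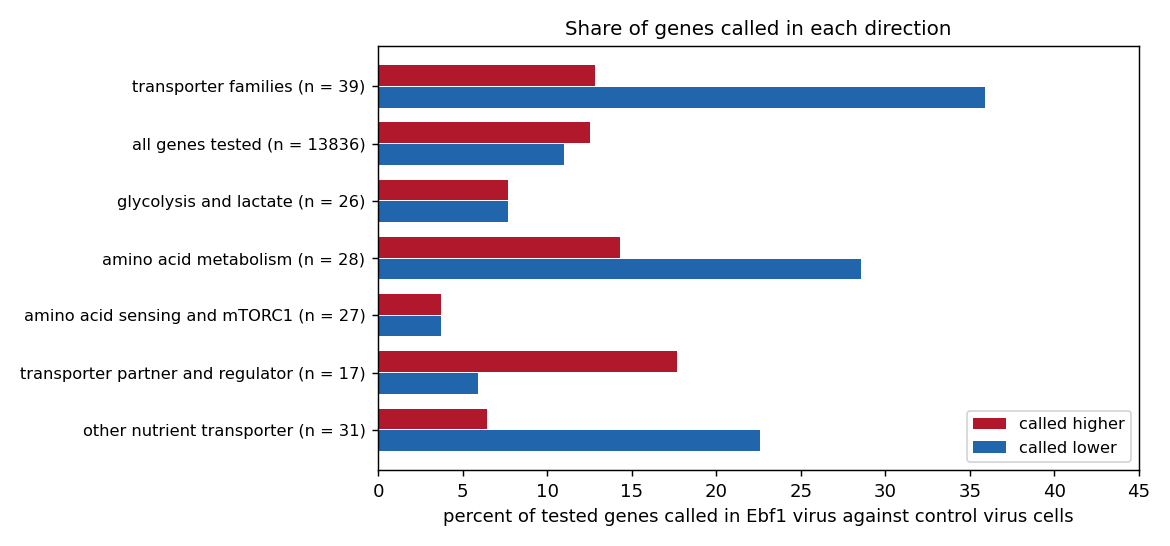
Percent of tested genes (horizontal axis) called higher and called lower in Ebf1 virus cells against control virus cells, for the transporter families, all tested genes and the 5 related lists, with the number of tested genes beside each name. Lower calls make up 35.9% of the 39 transporter-family genes and 11.0% of all tested genes, and the higher bars are 12.8% and 12.6%.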

How the data were processed

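Total RNA of 6 sorted samples was labelled with Cy3 and hybridised to 1-colour Agilent arrays. Per the file headers, the deposited spot intensities come from Agilent Feature Extraction, version 10.5.1.1 (protocol GE1_105_Dec08, positions on mm9), which subtracts background within an array, and the submitters' processing notes name the same software. The values the authors deposited as a series matrix equal the processed signal of the array files (largest relative difference 0), so they are linear, not centred and not ratios. Their medians were 12.7, 12.3 and 19.7 for Ebf1 virus replicates 1 to 3, and 13.1, 7.62 and 9.07 for control virus replicates 1 to 3.

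Control features (1639 of 45018) and 65 to 116 outlier spots per array were left out, no remaining spot was saturated, and spots of one probe were averaged. The log2 of the processed signal minus the 75th percentile of the array was fitted with limma 3.58.1 (lmFit and eBayes, two-sided) in R 4.3.3, and files were read with data.table, version 1.17.8. Gene symbols were updated through RefSeq accessions, which matched 25097 of 41174 probes, and no member changed its name. Of the tested probes, 8 lacked a value on an array, none of them a member. The 17 alternatives covered normexp background (offset 50), quantile and median scaling, 2 other filters, replicate and slide blocks, the variance model, the mean of all probes, the value table as deposited, and each array left out. The fit was tested on simulated data.

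The rule takes each called member and 18 well-known carriers, called or not; 28 tested genes are described and 1 is not reported here. It also takes up to 3 called genes of each related list with the smallest p; other genes were named after their values were seen. The members and lists were chosen with earlier results of these data known. The number of arrays limits the precision. Same-numbered replicates did not deviate together (correlations of -0.17, -0.25 and 0.10), while the 2 arrays that share a slide correlated at 0.29. The remaining pairs across the groups ranged from -0.13 to 0.19, and the correlation within slides estimated by limma was 0.01.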

Additional observations from a re-analysis of the deposited data

How the results depend on the processing

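No called transporter gene changed direction under any of the 17 alternatives run, but several of these could not turn a sign. The filters, the replicate block and the variance model leave the fitted change as it was. The deposited values equal those of the array files. The random slide block, with an estimated correlation of 0.01 within slides, nearly repeats the main fit. Slc2a8, Slc3a1, Slc7a1 and Slc16a7 kept their calls under all 17. Slc2a5 kept its call under 16 and was not tested under the filter on all 6 arrays. Only 1 of its control virus arrays was well above background, so it entered the other fits through its Ebf1 virus arrays. The other 14 called genes lost theirs under at least 1 alternative, 9 of them under more than 3, and Slc2a3 and Slc38a1 gained one under 3 each. The counts of 5 higher and 14 lower members came to 3 and 5 without a filter (87 genes tested; 5.75% of members and 1.83% of all genes lower), 3 and 9 with the replicate number as a block (23.1% and 6.69% lower; the numbers do not pair the samples), and 2 and 6 with a fixed slide block. Median scaling called 3 members higher, and 6.83% of all genes higher, against 12.6% in the main fit. Leaving out 1 array gave 3 to 5 higher and 7 to 12 lower (8.91% to 11.2% of all genes higher and 5.36% to 8.92% lower). The median of -0.31 became -0.20 with normexp background, -0.62 with median scaling, -0.22 without a filter and -0.47 with the fixed slide block, and -0.35 to -0.28 leaving out 1 array. The share of calls that are higher was 26.3% of members and 53.3% of all genes, against 17.6% and 34.7% under median scaling, and 37.5% and 66.6% without a filter. The cause of these shifts was not tested. Fits that leave out an array or the filter also differ in the number of arrays or of probes tested. Sizes for genes near background, such as Slc2a5, Slc3a1 and Slc16a5, are limited by their signal.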
